A study of Mus musculus with 20 samples.

Results

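Bcl11b, Satb1 and Myb encode transcriptional regulators that set and hold the identity of developing T cells. Their peaks of N6-methyladenosine (m6A) were taken as every row named after any of the 3 genes in the authors' deposited tables of peaks, 1 table for thymic invariant natural killer T (iNKT) cells and 1 for CD4 and CD8 double-positive (DP) thymocytes. This gave 12 of the 12542 iNKT peaks and 14 of the 13450 DP peaks, 26 of 25992 in all. Bcl11b had 5 iNKT and 5 DP peaks, Satb1 had 5 and 7, and Myb had 2 and 2.

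The study compared Mettl3fl/flCD4-cre mice (KO below), in which a Cre recombinase under Cd4 control removes the m6A writer gene Mettl3, with mice labelled WT, all C57BL/6 and 6 to 8 weeks old. For iNKT cells, sorted as 7AAD-negative cells that bound the CD1d tetramer and stained for TCRbeta, KO and WT mice each gave 3 input and 3 m6A libraries. For DP cells, sorted as tetramer-negative cells positive for CD4 and CD8, KO and WT mice each gave 2 input and 2 m6A libraries. The labels do not state whether the WT mice carried the Cre or a floxed allele, how many animals went into a library, or which cell type was handled by the standard and which by the low-input protocol, so protocol and cell type cannot be told apart. Marker genes fixed for the iNKT cell had a peak in the iNKT table for 7 of 7 and in the DP table for 2 of 7, and those for the DP thymocyte in 3 of 8 and 4 of 8. Of the genes that mark myeloid cells, thymic epithelium and erythroid cells, none had an iNKT peak and Csf1r alone had a DP peak. A gene without a peak can still be expressed.

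m6A is written on nascent messenger RNA by a complex whose catalytic subunit is METTL3, mostly near stop codons and in 3' untranslated regions (UTRs), and reader proteins that bind it alter the splicing, translation and decay of the transcript. Bcl11b is a zinc finger factor needed for T lineage commitment and for holding it, and iNKT cells fail to develop without it. Satb1 folds chromatin around genes that thymocytes use, the recombinase genes among them. Myb, the c-Myb proto-oncogene product, acts at several steps of thymocyte development and is needed in DP thymocytes for the iNKT lineage.

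Each peak has 1 fold enrichment of immunoprecipitate over input, 1 log2 fold change of methylation between genotypes and 1 false discovery rate (FDR) for that change. All of these are the authors' values and all quoted below come from the authors' deposited table of the cell type named. The tables hold no value per library, so no spread between replicates can be given, the depth behind a value is unknown, and it is not known how far an FDR takes in variation between mice. No source says which genotype is on top of the fold change. Negative values are read as likely lower in KO, because the gene list the authors deposited with each table holds 5339 of the 5343 iNKT genes and 4336 of the 4337 DP genes that have a negative peak and none of the others. A peak passed at an FDR of 0.05. The values describe methylation in whole sorted populations, in which a shift in the mix of cells and less methylation per cell cannot be told apart.

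The short stretches of the 5' UTR peaks that RefSeq's transcript starts cover are shown here because the peak that fell most in the set lies there. They are printed 5' to 3' on the transcribed strand with capitals for bases inside the iNKT peak.
Bcl11b, chr12:108003365-108003394, minus strand: cTATTTTAGAGCAAGCCATCTTCCTGGCTT
Myb, chr10:21160935-21160964, minus strand: GTTTGATGGCATCTGTTTACAGAGTTACAC
Satb1, chr17:51833241-51833270, minus strand: ctggcacacaCACACACCAATGCCCCGCGC
Satb1, chr17:51832650-51832672, minus strand: AAACGCCCACTTCGGATGGGGAG
The coordinates and sequences are RefSeq's on GRCm38.p6, the build that mm10 names. The first 3 are bases 21 to 50 of a transcript, and the last is the whole 23 nt downstream block of the spliced Satb1 peak. For Bcl11b 29 of these 30 bases lie in the iNKT peak and all 30 in the DP peak, for Myb 30 and for Satb1 20 lie in the iNKT peak and none in a DP peak. The m6A consensus DRACH (A, G or T, then A or G, then AC, then A, C or T) was not found on the transcribed strand in any of the 3 windows of 30 bases, and was found in 36.4% of 32851 such windows of RefSeq transcripts. On the opposite strand it was found 2 times in the Myb window and in neither of the others, against 37.3% of all windows with at least 1 match. GGACT, a form of the same consensus and so overlapping with it, was also absent, and was present in 3.36% of windows. The rest of each peak was not searched, since no genome sequence was used here.

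In iNKT cells 5 of the 12 peaks were lower and 1 was higher in KO, and the remaining 6 did not pass. Among all iNKT peaks, 19.8% were lower and 5.84% were higher. The median log2 fold change was -1.75 for the 12 peaks and -0.98 for all iNKT peaks, and 9 of the 12 values were negative. In DP cells 2 of the 14 peaks were lower, 2 were higher and 10 did not pass. Among all DP peaks, 0.743% were lower and 0.483% were higher. The median log2 fold change was -0.068 for the 14 peaks and 0.0 for all DP peaks. By position class, 2 of 3 iNKT peaks in 3' UTRs were lower (22.2% of that class in the table), as were 1 of 3 in 5' UTRs (13.8%) and 2 of 6 in other exons (19.5%), where 1 was higher (5.67%). Among DP peaks 2 of 6 in 3' UTRs were higher (0.621% of the class), the only 5' UTR peak was lower (1.15%), and 1 of 7 in other exons was lower (0.956%). The 3 genes were chosen with these calls known, so the counts describe them and are no evidence that they stand apart.

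**Figure D1:**
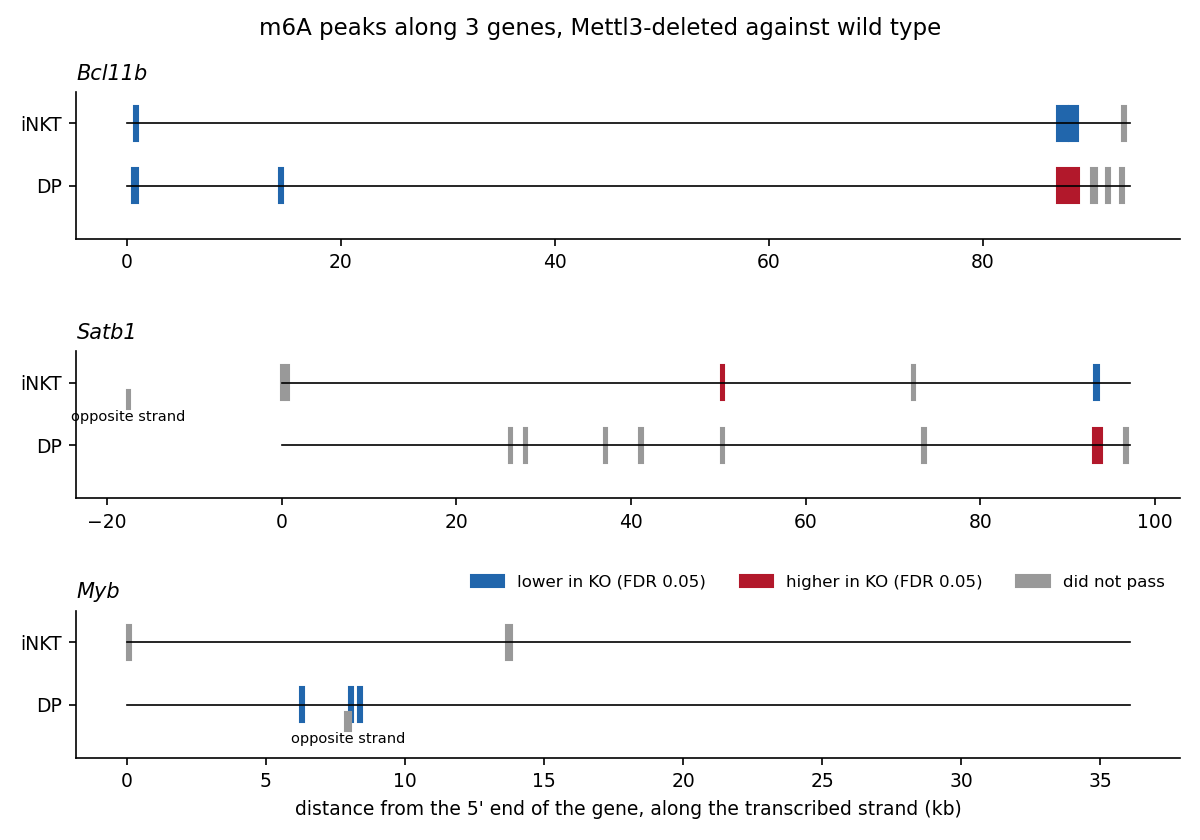
Peaks of Bcl11b, Satb1 and Myb placed by distance from the 5' end of the gene in kb, with iNKT cells above DP cells in each panel; blue blocks were lower in KO, red blocks higher and grey blocks did not pass at an FDR of 0.05. The blocks of a spliced peak share a colour, blocks too narrow to see are drawn at a minimum width, and peaks on the opposite strand hang below the line. The long Bcl11b and Satb1 peaks near the 3' end are blue in iNKT cells and red in DP cells.

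Bcl11b (ENSMUSG00000048251; chromosome 12, 107910403 to 108004145 in RefSeq, minus strand) had passing peaks in its 5' UTR and in its last exon in both tables. All 5 of its iNKT values were negative, 4 passed, and their log2 fold changes were between -6.02 and -1.69. Its 5 DP values were between -0.68 and 0.95, with 1 lower and 1 higher. Genes with at least 5 peaks made up 5.02% of genes in the iNKT table and 6.62% in the DP table.

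At the 5' end the iNKT peak of Bcl11b covered 241 nt of the 5' UTR (chromosome 12, 108003153 to 108003393). Its log2 fold change was -6.02 (FDR 1e-107), which is 64.9-fold lower in KO, and its fold enrichment over input was 14.3. This was the most negative value among the 26 peaks, and 1.26% of iNKT peaks had a value as low or lower. The DP peak at the same place had 2 blocks of 262 and 517 nt across a splice junction (chromosome 12, 107989569 to 108003602), began 209 nt further upstream and contained all 241 nt of the iNKT peak. Its log2 fold change was -0.30 (FDR 0.032), which is 1.23-fold lower, with a fold enrichment of 3.46. Both cell types therefore had a lower value at this site, with sizes that differ widely and intervals that differ in length. Whether the change differs between the cell types was not tested, because neither table holds a standard error.

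In the last exon of Bcl11b lay a single DP peak of 2096 nt, which ended 4728 nt short of the 3' end of the gene (chromosome 12, 107915131 to 107917226). It ranked 35 among the 13450 DP peaks by length. It had a log2 fold change of 0.28 (FDR 0.00018), which is 1.21-fold higher in KO, and a fold enrichment of 7.5. By FDR of the change it ranked 21 in the DP table. The iNKT table split the same stretch into 3 peaks, which lie wholly inside the DP peak, cover 84.4% of it and leave gaps of 178 and 59 nt.

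From the 5' side, the nearest iNKT peak of the last exon covered 510 nt (chromosome 12, 107916717 to 107917226), with a log2 fold change of -1.85 (FDR 5e-13) and a fold enrichment of 52. Its 5' border is the same base as that of the DP peak. The next covered 390 nt (107916149 to 107916538), with -2.39 (FDR 1e-31) and a fold enrichment of 6.08. The last covered 869 nt (107915221 to 107916089), with -3.08 (FDR 1.3e-48) and a fold enrichment of 15.3. The authors' annotation placed the 2 upstream peaks in exon 4 of 4 and the other, like the long DP peak, in the 3' UTR, so these labels name parts of the same exon. All 3 were lower in KO, by 3.61, 5.24 and 8.46-fold, while the DP peak that contains them was higher.

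The other Bcl11b peaks lay further towards the end of the 3' UTR and did not pass. In DP cells a 510 nt peak had a fold enrichment of 7.52, close to that of the long peak, and a log2 fold change of -0.68 (FDR 0.26). It had no match in the iNKT table. A 301 nt DP peak had -0.54 (FDR 0.41) and a 151 nt DP peak had 0.95 (FDR 0.31), with fold enrichments of 2.06 and 1.92. The most 3' iNKT peak, 180 nt long and 29 nt from that 151 nt peak, had -1.69 (FDR 0.6) with a fold enrichment of 10.1.

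**Figure D2:**
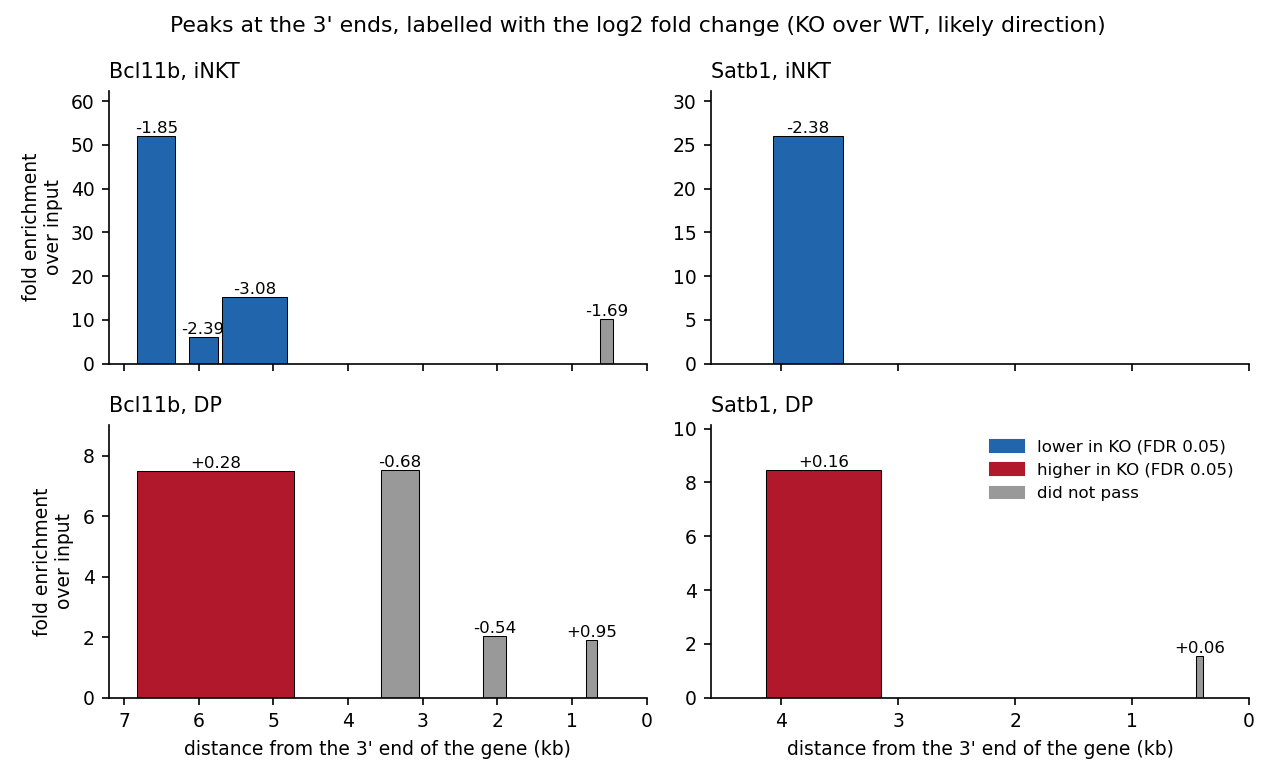
Fold enrichment over input (bar height from 0, on a separate scale in each panel) of the peaks near the 3' end of Bcl11b and Satb1, by distance from the 3' end of the gene in kb, with iNKT cells above DP cells and the log2 fold change printed on each bar. The 3 blue Bcl11b peaks of iNKT cells (-1.85, -2.39 and -3.08) lie within the interval of the red DP peak (0.28), and the blue Satb1 peak (-2.38) lies within that of a red DP peak (0.16).

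Satb1 (ENSMUSG00000023927; chromosome 17, 51736187 to 51833290 in RefSeq, minus strand) carried a 3' UTR peak that was among the strongest of both tables by peak p. In iNKT cells this peak was 600 nt long (chromosome 17, 51739663 to 51740262) and ranked 19 of 12542 by peak p, with a fold enrichment of 26. Its log2 fold change was -2.38 (FDR 1e-315), which is 5.21-fold lower in KO and ranked 24 by FDR. In DP cells it was 990 nt long (51739333 to 51740322) and ranked 13 of 13450 by peak p, with a fold enrichment of 8.45. Its log2 fold change there was 0.16 (FDR 0.03), 1.12-fold higher in KO. By fold enrichment the site stood less high, as 78.8% of iNKT peaks and 72.2% of DP peaks were at or under its value. The DP peak contains the iNKT peak and runs 60 nt past it on the 5' side and 330 nt on the 3' side. The passing calls of Satb1 at this site were thus lower in iNKT cells and higher in DP cells, as at the last exon of Bcl11b.

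The only higher iNKT peak of the set lay in exon 7 of 11 of Satb1 (chromosome 17, 51782686 to 51782895, 210 nt). It had a log2 fold change of 0.70 (FDR 4.9e-08), which is 1.62-fold higher in KO, and a fold enrichment of 1.67, a level that 1.75% of iNKT peaks were at or under. The DP peak at the same place was 151 nt long and lies inside it (51782745 to 51782895). It had a log2 fold change of 0.17 (FDR 0.35), did not pass, and had a fold enrichment of 1.41. Satb1 in iNKT cells thus had a lower peak in the 3' UTR with a fold enrichment of 26 and a weakly enriched higher peak in exon 7.

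No other Satb1 peak passed in either table. In iNKT cells a spliced 5' UTR peak of 23 and 98 nt had a log2 fold change of -0.74 (FDR 0.76), with its 5' border 30 nt inside the RefSeq start of the gene. A 180 nt iNKT peak that the annotation gives to a transcript with a single exon had 0.32 (FDR 0.76). A further iNKT peak named after Satb1 (chromosome 17, 51850744 to 51851011) lay 17453 nt upstream of the gene on the plus strand, opposite to that of Satb1, and so outside the Satb1 transcript. Its fold enrichment was 44.6 and its log2 fold change 0.65 (FDR 0.76).

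The 5 remaining DP peaks of Satb1 had log2 fold changes between -1.54 and 0.087. The lowest of them, 328 nt annotated to a transcript with a single exon (chromosome 17, 51792005 to 51792332), had -1.54 at an FDR of 0.066, just above the threshold, with a fold enrichment of 4.71. It was the largest DP change of the 14 in absolute size, and 92% of DP peaks had a change as small or smaller. No iNKT peak overlapped it. Another pair of peaks annotated to single-exon transcripts had -0.26 and 0.087 (FDR 0.64 and 0.67). A spliced peak at exon 3 had -0.010 (FDR 0.65), with a fold enrichment of 1.21, and a 60 nt peak at the end of the 3' UTR had 0.058 (FDR 0.66).

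Myb (ENSMUSG00000019982; chromosome 10, 21124930 to 21160984 in RefSeq, minus strand) had fewer and differently placed peaks. No base was shared between its iNKT and DP peaks. In iNKT cells a 121 nt 5' UTR peak ended at the RefSeq start of the gene to the base (chromosome 10, 21160864 to 21160984), with a fold enrichment of 37.9. Its log2 fold change was -1.81 (FDR 0.52) and did not pass. A 241 nt iNKT peak annotated to a single-exon transcript (21147130 to 21147370) had -0.86 (FDR 0.76) and a fold enrichment of 6.31.

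In DP cells Myb had a spliced peak with blocks of 136, 93 and 11 nt on its own strand (chromosome 10, 21152521 to 21154694), with a log2 fold change of -0.27 (FDR 0.03). This peak was lower in KO by 1.2-fold and had a fold enrichment of 1.37, which only 0.461% of DP peaks were at or under. A 210 nt peak on the plus strand (21152939 to 21153148) shares 46 nt of position with it and had -0.13 (FDR 0.6) and a fold enrichment of 1.53. Whether the libraries keep the strand of the RNA is not given in the sources used here, so the reads of these 2 peaks may not be separable.

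**Figure D3:**
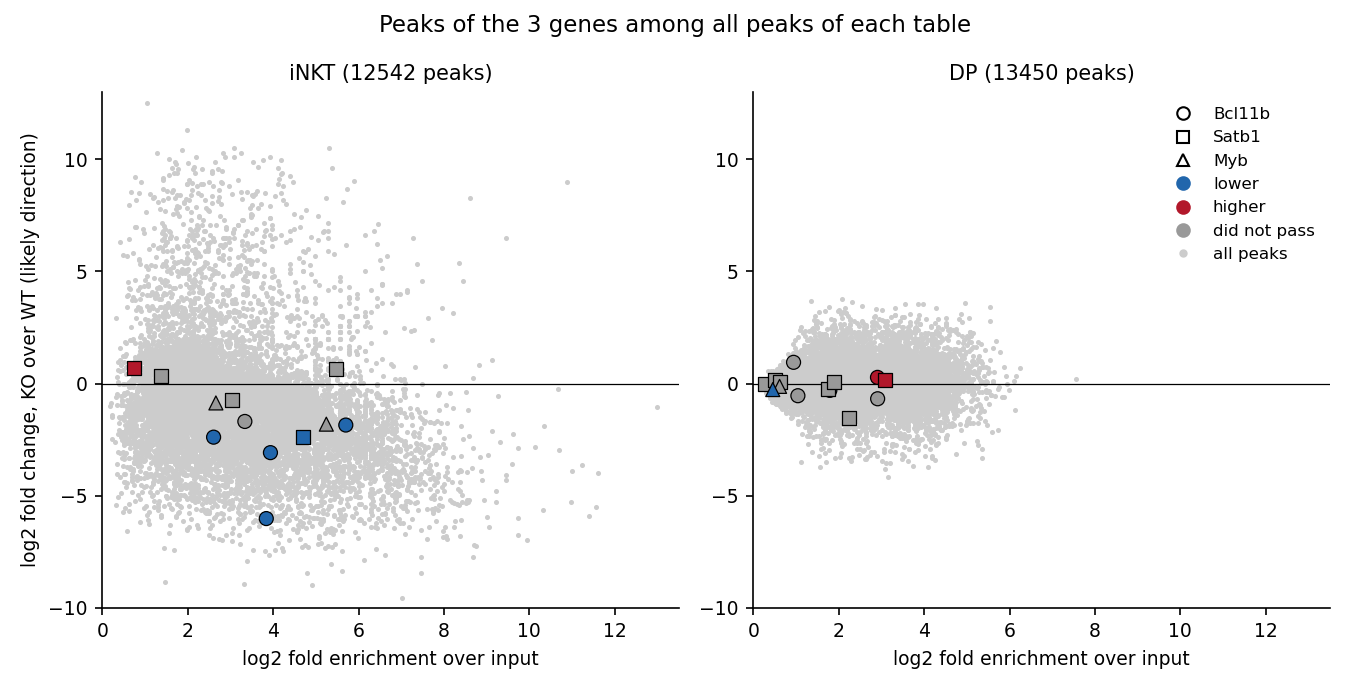
Log2 fold change against log2 fold enrichment over input for every peak of each table (small grey points) and for the peaks of Bcl11b (circles), Satb1 (squares) and Myb (triangles), with iNKT cells on the left and DP cells on the right; blue is lower in KO, red higher and dark grey did not pass at an FDR of 0.05. The iNKT values of the 3 genes run from -6.02 to 0.70, and the DP values from -1.54 to 0.95.

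Most passing peaks were stronger by peak p than those that did not pass. The 6 passing iNKT peaks had a log10 peak p between -30300 and -91.4, and the 6 others between -126 and -11. The higher Satb1 exon 7 peak, at -91.4, was the only passing iNKT peak of these genes weaker by this measure than a peak that did not pass. In DP cells the 4 passing peaks had a log10 peak p between -1320 and -19.6, and the 10 others between -69.8 and -2.93. The lower Myb peak, at -19.6, passed while the 510 nt Bcl11b peak, at -69.8, did not. A fold enrichment under 2 was found at 1 of the 12 iNKT peaks and 6 of the 14 DP peaks, against 3.82% and 8.91% of all peaks in the 2 tables. The part of peak strength in the calls was not tested.

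Part of the positions were shared by the tables. Counting as a match any exonic base in common on 1 strand, 6 of the 12 iNKT peaks matched 4 of the 14 DP peaks, 50% and 28.6%, against 42.7% of all iNKT and 36.4% of all DP peaks. Bcl11b gave 4 of the 6 matched pairs, Satb1 gave 2 and Myb gave none. In 4 of these pairs the iNKT peak was lower and the DP peak higher, both passing, and they rest on the long last-exon peak of Bcl11b and the 3' UTR peak of Satb1. Over all genes 41 of 5755 matched pairs (0.712%) had this combination, in 33 genes. Of the 56 DP peaks that were higher and had an iNKT match, 36 (64.3%) had a lower iNKT match, and of the 37 that were lower 28 (75.7%) had one. These shares count DP peaks, and a DP peak with several matches has several chances of a lower one. Counted by pair, the iNKT peak was lower in 41 of 74 pairs with a higher DP peak. It was lower in 33 of 46 pairs with a lower DP peak, and in 38.8% of all pairs. The signs of the DP values follow the same reading as those of the iNKT table. With the DP sign turned, the pairs with a lower iNKT and a higher DP peak would be lower in both.

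Relatives of Bcl11b and Myb had few peaks. Bcl11a, Mybl1 and Mybl2 had 1 iNKT peak each, and none of them had a DP peak. The iNKT values were log2 fold changes of -1.32 for Bcl11a (FDR 0.76), -2.81 for Mybl1 (FDR 0.74) and -3.10 for Mybl2 (FDR 0.5). None of them passed, although their fold enrichments were 86.2, 62.7 and 80.9, above that of any peak of the 3 genes.

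Proteins that work with the 3 factors, such as the NuRD and BAF chromatin remodelling subunits, the Myb coactivators and the MLL complex, had lower iNKT peaks in 8 of the 9 genes with a peak and higher ones in 2 (Ep300 and Kmt2a, both also with lower peaks). The share over all iNKT genes was 26.2% lower and 9.64% higher, but these 9 genes held 38 peaks while the median gene of the table held 1, and how far the number of peaks sets the share was not tested. The largest iNKT changes were in the acetyltransferase genes Crebbp (-6.22) and Ep300 (-5.25), the NuRD helicase gene Chd4 (-5.77) and the deacetylase gene Hdac1 (-5.30). The strand of the Hdac1 peak was not checked against its gene. In DP cells, where 1.44% of genes had a lower and 0.876% a higher peak, 2 of 12 partner genes had a lower peak (Crebbp, -1.09, and the BAF ATPase gene Smarca4, -0.21) and 1 a higher (the BAF subunit gene Arid1a, 0.55).

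Other regulators of thymocyte identity had lower iNKT peaks in 14 of 23 genes and higher ones in 7, against 26.2% and 9.64% of all iNKT genes. Gata3, Nfatc1, Runx3 and Sox4 stood in both counts. The median log2 fold change was -2.26 over the list's 64 peaks and -0.98 over all iNKT peaks, and as with the partner genes the list held more peaks per gene than the median gene. The largest changes were in Zbtb16 (-8.43), which directs the iNKT effector programme, and Runx3 (8.20), Gfi1 (7.81, on the strand opposite to the gene) and Runx1 (7.58), the last 3 at peaks with fold enrichments of 5.25, 5.34 and 3.15. Runx3 also had a lower 3' UTR peak of 959 nt (-3.24, FDR 5e-22) with a fold enrichment of 28.8, against 91 nt for its higher peak. In DP cells 1 of 20 genes had a passing peak, a higher 5' UTR peak of Sox4 (0.49, FDR 0.00021), against 0.876% of all DP genes with a higher peak. Genes known to depend on Bcl11b, Satb1 or Myb in thymocytes had lower iNKT peaks in 10 of 13 and higher ones in 4, against the same 26.2% and 9.64% of all iNKT genes. Their median was -1.75 over 32 peaks, against -0.98 over all iNKT peaks, and this list too held more peaks per gene than the median gene. Besides Zbtb16 and Runx3, which both lists hold, the largest changes were in the survival gene Bcl2l1 (6.34) and in Zbtb7b (-5.19), which directs the CD4 lineage. In DP cells 1 of 13 genes had a passing peak, a higher peak of the recombinase gene Rag1 (0.15, FDR 3.7e-05), against the same 0.876%.

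Likeness between genes was measured over 4 values, the log2 fold change and the log2 fold enrichment of each gene's peak with the smallest peak p in iNKT and in DP cells, as a distance in units of the spread over the 4389 genes with a peak in both tables. The genes nearest to Bcl11b were Espl1, Gdpd2 and Etv4 (distances 0.253, 0.263 and 0.368). For Espl1 the log2 fold changes were -2.18 in iNKT and 0.26 in DP cells, against -1.85 and 0.28 for Bcl11b. Genes near to Satb1 included Dnajb12 and Serpinc1 (0.284 and 0.331). For Dnajb12 the values were -2.86 in iNKT and 0.23 in DP cells, against -2.38 and 0.16 for Satb1. The genes nearest to Myb were Calm3, Kpnb1 and D8Ertd738e (0.409, 0.439 and 0.627), with -0.99 in iNKT and -0.43 in DP cells for Calm3, against -1.81 and -0.27 for Myb. With the median over a gene's peaks in place of the strongest peak, none of these genes was among the 3 nearest of its gene.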

How the data were processed

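The samples were input and m6A libraries of sorted iNKT and DP thymocytes. The submitters' processing notes name STAR 2.6.0a, HOMER 4.9.1, RSEM 1.3.0, Trim Galore 0.6.5 and FastQC 0.11.5, and mm10 as the build. The column names are those the exomePeak package writes; the caller's settings and any pooling are not given in the sources used. Per the file headers, a peak has a p-value, a log2 fold change and, as a linear ratio, a fold enrichment. Per the file headers it also holds log10 p and FDR values, treated as scores because they run far below the range of a log column.

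Repeated rows were removed (24 iNKT, 5 DP), and starts were turned to count from 1. With no values per library in the files, no test could be made, and the calls rest on the authors' FDR. Calls, members and gene lists were chosen with earlier results of these data known. Genes named from the lists were those with a passing DP peak and, per list, the 4 with the largest passing iNKT change. Peaks were matched with bedtools 2.31.1. All 3 genes and all list genes matched RefSeq (GRCm38.p6) by symbol, but no gene strand was found for Zbtb16 and Hdac1. Shares were computed with Python 3.11.15, pandas 2.3.3 and numpy 2.4.6. The overlap and nearest-gene steps were tested on simulated data. A few genes of the lists and of the nearest-gene search are not reported here.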

Additional observations from a re-analysis of the deposited data

How the results depend on the processing

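The 5 lower iNKT peaks stayed 5 under an FDR of 0.01 or 0.1, at least 2-fold change, repeated rows kept, a fold enrichment of at least 2, and peaks within the RefSeq span of the gene on its strand, an assignment added after seeing the data. The 1 higher iNKT peak became 0 with at least 2-fold change and 0 with a fold enrichment of at least 2, since its fold enrichment was 1.67. The 2 lower DP peaks became 0 at an FDR of 0.01, 0 with at least 2-fold change, and 1 with a fold enrichment of at least 2, which leaves out the Myb peak. The 2 higher DP peaks became 1 at an FDR of 0.01, where the Satb1 peak no longer passed, and 0 with at least 2-fold change. At an FDR of 0.1 the lower DP peaks became 3. The 4 matched DP peaks stayed 4 with at least 50% of the shorter peak shared and with strand ignored. The median log2 fold change was -1.75 in iNKT cells (alternatives from -2.0 to -1.81) and -0.068 in DP cells (alternatives from -0.28 to -0.010), each alternative being a mean weighted by length, a fold enrichment of at least 2 or the assignment by span. No paired analysis was possible because the tables hold no values per library, and for the same reason no replicate could be left out. Assignment of peaks to exons and a count of motifs over whole peaks were planned and not run, because no transcript models or genome sequence were used here. Depth per library is unknown, so peaks that did not pass are not shown to be unchanged.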

Other observations

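The RefSeq table of transcript starts gave 5 starts for Satb1 and 1 each for Bcl11b and Myb. The DRACH consensus was present in bases 21 to 50 of 2 of the 5 Satb1 starts, neither of which a peak of either table covered.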
